A study of Rattus norvegicus with 36 samples.

Results

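The nuclear genes of the mitochondrial respiratory chain were followed in the liver of rats given the brominated flame retardant TBPH, bis(2-ethylhexyl) tetrabromophthalate. Members were the genes whose single array symbol begins with Nduf, Uqcr or Atp5, or with Cox and a digit from 4 to 8, together with Sdha, Sdhb, Sdhc, Sdhd, Cycs and Cyc1. The rule found 87 genes of the 14217 genes named on the array, each read from its probe set (the group of short probes for a transcript) with the highest mean. Complex I had 42 members, complex II 4, complex III 8, complex IV 17 and complex V 16. The names also took in 6 assembly factors of complex I (Ndufaf1, Ndufaf3, Ndufaf4, Ndufaf5, Ndufaf7 and Ndufaf8), the ATP synthase inhibitor Atp5if1 and the pseudogene Cox6c-ps1, so that 79 members were subunits. Probe sets that carry several symbols were left out, and Cycs, Ndufs5, Ndufa10, Uqcrb, Cox7a2, Atp5mc1 and Atp5mc2 were therefore not analysed here.

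All animals were male Sprague Dawley rats from Harlan, 7 weeks old at the start and kept on NTP-2000 diet. The vehicle group received corn oil by oral gavage, and the dosed groups received TBPH in the same oil at 706, 70.6, 7.06, 0.71 or 0.07 mg/kg, in 5 ml/kg, on 5 consecutive days. The left lobe was taken on the day after the final gavage. Each of the 6 groups had 6 Affymetrix 3′ expression arrays, 36 in all, numbered in the labels. Whether each array is another animal is not said there, and the p-values cover the spread from array to array, which may be technical. In whole liver, fewer cells of a type and less RNA per cell cannot be told apart.

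The respiratory chain lies in the inner mitochondrial membrane. Complexes I and II pass electrons from NADH and succinate to ubiquinone, complex III passes them on to cytochrome c, complex IV hands them to oxygen, and complex V, the ATP synthase, uses the proton gradient made by complexes I, III and IV. The core of the chain is partly encoded in mitochondrial DNA and partly in the nucleus, and the nuclear genes, many of them for small accessory subunits, depend in textbook accounts on the factors NRF1, GABP of the ETS family, YY1 and ERRα. Liver holds many mitochondria and draws most of its ATP from this chain.

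Promoter sequences are shown first, since shared promoter motifs are what these genes are known for, and since the genes chosen include some that later ran together across arrays and some that ran opposite to them. The 100 bases before the start site are given 5′ to 3′ on the gene's strand, from RefSeq on the GRCr8 build. Capitals mark a match to the NRF1 motif (GCGCA, any base, then GCGC), the ETS letters CCGGAAG or the ERR letters AAGGTCA, on either strand.
Uqcrq, chr10:38089979-38090078, minus strand: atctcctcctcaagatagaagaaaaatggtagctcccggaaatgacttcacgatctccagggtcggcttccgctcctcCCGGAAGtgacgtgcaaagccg
Atp5f1e, chr3:183680173-183680272, minus strand: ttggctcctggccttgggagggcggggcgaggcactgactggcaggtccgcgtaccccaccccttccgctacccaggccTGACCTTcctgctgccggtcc
Ndufa13, chr16:19560426-19560525, plus strand: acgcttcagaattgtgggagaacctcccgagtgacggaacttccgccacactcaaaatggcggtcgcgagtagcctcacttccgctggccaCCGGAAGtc
Sdha, chr1:30764453-30764552, plus strand: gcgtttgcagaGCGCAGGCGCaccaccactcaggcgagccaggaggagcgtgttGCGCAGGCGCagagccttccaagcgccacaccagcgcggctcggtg
Uqcrc2, chr1:184599140-184599239, plus strand: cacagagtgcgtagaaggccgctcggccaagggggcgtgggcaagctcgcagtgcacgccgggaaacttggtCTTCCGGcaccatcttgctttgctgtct
Ndufs1, chr9:72073606-72073705, minus strand: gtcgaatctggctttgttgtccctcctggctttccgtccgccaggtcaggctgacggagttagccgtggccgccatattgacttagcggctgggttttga

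Uqcrq (a small subunit of complex III), Ndufa13 (an accessory subunit of complex I) and Uqcrc2 (a core protein of complex III) each carried the ETS letters in this window. Sdha, the flavoprotein of complex II, carried the NRF1 motif at 2 places, and Atp5f1e, the epsilon subunit of ATP synthase, carried the ERR letters. The window of Ndufs1, the largest subunit of complex I, held none of them, and its ETS match lay farther upstream, at -199 from the start. Of the 87 members, 78 had a promoter entry of 300 bases (250 before the start and 50 after), and 43 of these held at least 1 of the NRF1, ETS, ERR or YY1 (AAGATGGCG) letter strings on either strand. The ETS letters were in 22 members (28.2%, against 9.22% of all 27457 promoters) and the NRF1 motif in 15 (19.2% against 4.71%). The YY1 letters were in 11 members (14.1% against 1.93%) and the ERR letters also in 11 (14.1% against 4.37%). Among the 11700 promoters of genes on the array, the shares were 15.1% for ETS, 8.50% for NRF1, 3.14% for YY1 and 3.15% for ERR. A match of letters describes the sequence and is no measure of binding.

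The deposited values were on the log2 scale. The median member had a mean of 11.19 over the 36 arrays, and the median gene of the array had 6.36. A mean of at least 10 was reached by 68 of 87 members and by 1180 of all 14217 genes. By complex, the median member stood at 10.90 in complex I, 11.39 in complex II, 11.41 in complex III, 10.45 in complex IV and 12 in complex V. Probe sets bind with different strength, so these values do not rank the amounts of different transcripts. The highest means in each complex were those of Ndufa4 (12.56), Sdhb (11.80), Uqcrq (12.62), Cox7b (12.89) and Atp5f1b (12.96), the beta subunit that carries the catalytic sites of ATP synthase. Ndufa4 bears a complex I name and is now placed in complex IV.

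Complex IV split by tissue form. The forms known from liver were high: Cox4i1 had a mean of 12.47, Cox6a1 11.98, Cox6b1 11.53, Cox7b 12.89 and Cox8a 12.31. The forms known from heart and skeletal muscle, lung or testis were low: Cox4i2 (a lung form) had 3.69, Cox6a2 4.21, Cox7a1 4.73 and Cox8b 3.51 (muscle forms), and Cox6b2 3.51 and Cox7b2 2.96 (testis forms). Of the 8 members with a mean under 6, 7 were in complex IV, the pseudogene Cox6c-ps1 (5.38) among them, and the other was Ndufa4l2 (3.69). The defining markers of muscle, 9 genes including Ckm and Acta1, had means from 2.76 to 4.17 and the 8 hepatocyte markers had means from 12.72 to 14.76. Averaged over its genes, the muscle list ranged from 3.27 to 3.57 over the arrays and the hepatocyte list from 13.61 to 13.75.

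An array stood apart in each of a pair of groups. On the first principal component of all probe sets, replicate 5 at 70.6 mg/kg scored 37.53 and replicate 4 at 0.07 mg/kg scored 32.90, against at most 11.96 in the other 34. In the same 2 arrays the difference between the 3′ and 5′ control probe sets of GAPDH, which widens as RNA shortens, was 0.41 and 0.33 log2, against -0.18 to 0.09 in the others. Some results below are given with and without these 2 arrays, and the others use all 36 arrays unless stated. The correlation between any pair of arrays over all probe sets was 0.987 to 0.996.

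Within groups, most members varied little. The residual SD of a member (its spread between arrays of a group, log2) had a median of 0.094, against 0.144 for all genes and 0.103 for genes with a mean of at least 10. By complex the median was 0.059 in complex II, 0.070 in III, 0.094 in I, 0.102 in V and 0.137 in IV. The smallest were 0.037 for Atp5pb and 0.040 for Atp5mc3, of the stator and the membrane ring of ATP synthase, and 0.041 for Sdhd, which anchors complex II in the membrane. The largest were 0.284 for Cox5a, 0.210 for Cox6b2 and 0.192 for Ndufaf4.

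Dosing with TBPH was compared with vehicle to ask whether the chain's transcripts changed with exposure. No member passed the test at any dose. At 706 mg/kg, limma called 0 of 87 members and 0 of 31042 probe sets at an adjusted p of 0.05 (0.0% of probe sets). Without adjustment, 0 members were under 0.05, against 3.48% of probe sets (1080) and 22 of the 1180 genes with a mean of at least 10. The smallest adjusted p of a member from limma was 0.9995 at 706 mg/kg and 0.921 at 70.6 mg/kg, the lowest over the 5 doses.

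The flavoprotein and the other subunits of complex II showed how narrow the differences were. Sdha ranged from 10.71 to 11.002 in vehicle (median 10.94) and from 10.61 to 10.95 at 706 mg/kg (median 10.81). Sdhb, the iron-sulfur subunit, ranged from 11.71 to 11.88 (median 11.81) in vehicle and from 11.69 to 11.87 (median 11.75) at 706 mg/kg. Sdhc, a membrane anchor, ranged from 11.06 to 11.16 (median 11.12) and from 10.97 to 11.12 (median 11.09). In all of them the dosed arrays overlapped the vehicle arrays. Sdhd ranged from 11.62 to 11.71 (median 11.68) in vehicle and from 11.58 to 11.70 (median 11.64) at 706 mg/kg, again overlapping. The log2 differences from vehicle were -0.07 for Sdha (95% interval -0.24 to 0.09), -0.03 for Sdhb (-0.13 to 0.07), -0.04 for Sdhc (-0.12 to 0.05) and -0.03 for Sdhd (-0.10 to 0.05). The median over complex II was -0.03, with 0 members above vehicle and 4 below, and none passed the test.

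A core subunit of each other complex gave the same picture. Ndufs1, which holds iron-sulfur clusters of complex I, ranged from 10.19 to 10.41 (median 10.28) in vehicle and from 10.29 to 10.44 (median 10.32) at 706 mg/kg, a difference of 0.04 (-0.08 to 0.15). Uqcrc1, a core protein of complex III, ranged from 11.14 to 11.41 (median 11.31) and from 11.21 to 11.41 (median 11.36), a difference of 0.04 (-0.09 to 0.17). Cyc1, the haem-bearing cytochrome c1 of complex III, differed by -0.03 (-0.12 to 0.06). Each of these overlapped between groups.

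Cox4i1, the common form of a regulatory subunit of complex IV, ranged from 12.31 to 12.56 (median 12.36) in vehicle and from 12.28 to 12.58 (median 12.52) at 706 mg/kg. It was above vehicle by 0.09 (-0.04 to 0.22) at 706 mg/kg and by 0.10 (-0.03 to 0.23) at both 70.6 and 7.06 mg/kg, and did not pass. Atp5f1b ranged from 12.89 to 13.00 (median 12.98) and from 12.91 to 13.02 (median 12.97), and differed by 0.01 (-0.07 to 0.09). Its residual SD, 0.042, was the smallest of these 5 core subunits (Ndufs1, Sdha, Uqcrc1, Cox4i1 and Atp5f1b).

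**Figure D1:**
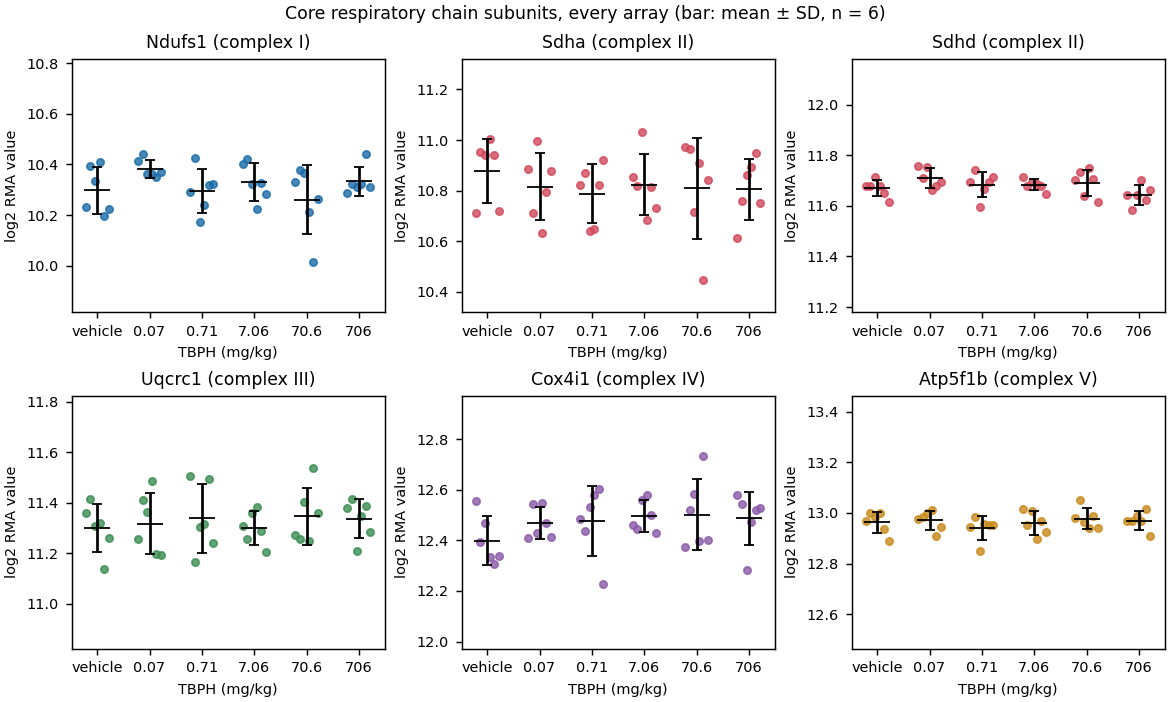
Log2 values (y axis) of 6 core subunits in every array by TBPH dose (x axis, mg/kg), with bars for the mean ± SD of 6 arrays; every panel spans 1 log2 unit. Points of the dosed groups overlap those of vehicle for each gene, and the lowest Sdha point, 10.45, is in the 70.6 mg/kg group.

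Over all members the bounds were tight, near those of other bright genes. The median standard error of a difference was 0.059 for members, 0.063 for genes with a mean of at least 10 and 0.083 for all genes. At 706 mg/kg the 95% interval of the difference lay inside a 1.2-fold change in either direction for 82 of 87 members, against 63.8% of probe sets, and inside 1.5-fold for 87 of 87, against 97.7%. The count inside 1.2-fold was 79 at 70.6 mg/kg (61.5% of probe sets), 82 at 7.06 (64.4%), 79 at 0.71 (63.2%) and 84 at 0.07 (65.8%). All 87 intervals were inside 1.5-fold at those doses too, against 97.1%, 97.9%, 97.9% and 97.8% of probe sets. The largest difference of any member at any dose was -0.22 for Ndufaf4 at 70.6 mg/kg. For no member were all arrays of a dose above or all below the vehicle arrays. Of all probe sets, 0.0387% were wholly above and 0.103% wholly below at 706 mg/kg. The same shares were 0.0677% and 0.0999% at 70.6 mg/kg, 0.0677% and 0.148% at 7.06, 0.0451% and 0.11% at 0.71, and 0.0612% and 0.087% at 0.07.

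The direction of the small differences was mostly upward. At 706 mg/kg 50 members were above vehicle and 37 below, with a median of 0.012, against 0.006 over all genes (7553 of 14217 above vehicle). By complex the medians at 706 mg/kg were 0.03 (I), -0.03 (II), -0.0003 (III), 0.004 (IV) and 0.02 (V). At 70.6 mg/kg 66 members were above and 21 below, and the medians were 0.06, -0.01, 0.04, 0.03 and 0.07. With the array that stood apart in this group (replicate 5) and the one at 0.07 mg/kg left out, the medians at 70.6 mg/kg were 0.02, -0.004, 0.006, 0.006 and 0.01. At 7.06 mg/kg 70 were above and 17 below (median 0.03), at 0.71 mg/kg 64 and 23 (0.03), and at 0.07 mg/kg 67 and 20 (0.02), against medians of 0.008, 0.007 and 0.003 over all genes. Of all 14217 genes, 7785 were above vehicle at 70.6 mg/kg, 7731 at 7.06, 7592 at 0.71 and 7341 at 0.07. Of the 1180 genes with a mean of at least 10, 666 were above vehicle at 706 mg/kg, 697 at 70.6, 724 at 7.06, 696 at 0.71 and 665 at 0.07. Members also moved together from array to array, as given further on, so their counts are not independent. The GAPDH 3′ to 5′ difference, which many members followed within groups as given further on, had a median of -0.071 in vehicle, the lowest of the groups, against 0.026 at 706 mg/kg, -0.041 at 70.6, -0.047 at 7.06, 0.002 at 0.71 and -0.056 at 0.07, and its part in the direction was not tested. Every dose was set against the same 6 vehicle arrays. The array medians of a complex had a within-group SD of 0.042 (II) to 0.073 (V), and the shift of each complex was smaller than its SD. This SD is of single arrays and is wider than the error of a difference between group means. The comparison is therefore a description and no test of the shifts.

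**Figure D2:**
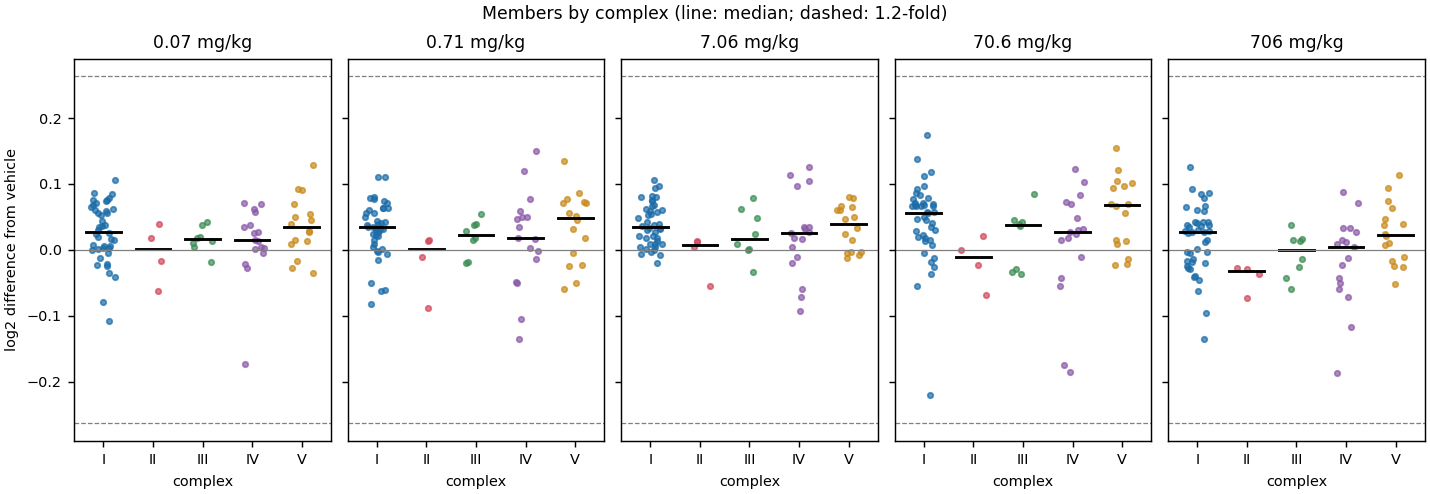
Log2 difference from vehicle (y axis) of each member by complex (x axis), with a panel for each TBPH dose; lines are medians and dashed lines mark a 1.2-fold change. All points lie between the dashed lines, the lowest being Ndufaf4 at -0.22 in the 70.6 mg/kg panel.

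**Figure D3:**
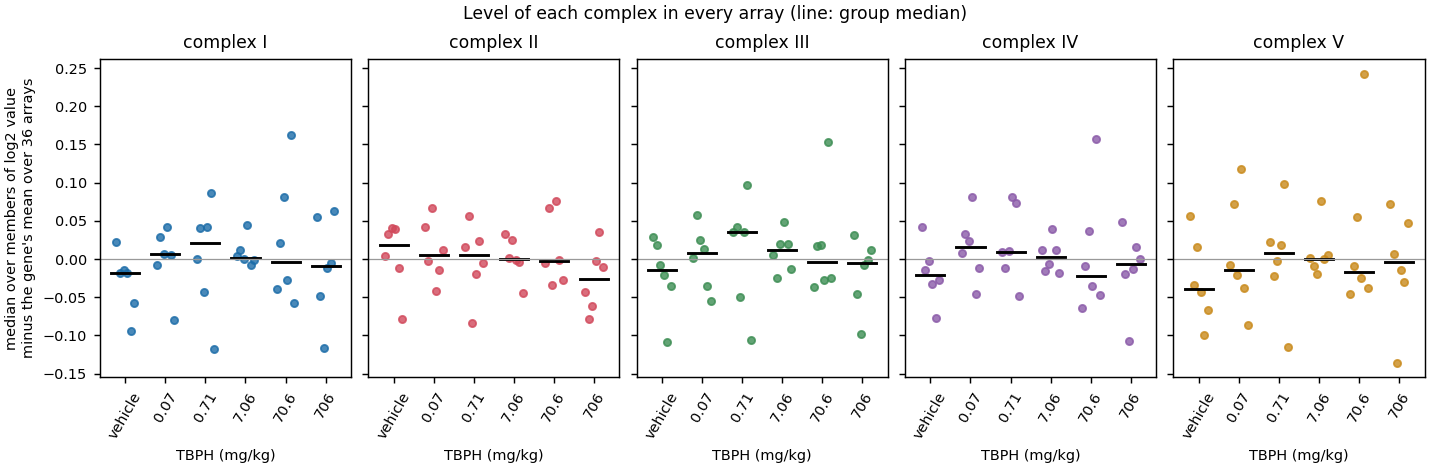
Median over the members of a complex of the log2 value minus the gene's own mean over 36 arrays (y axis), 1 point per array, by TBPH dose (x axis, mg/kg); lines are group medians. Groups overlap in every complex, and replicate 5 at 70.6 mg/kg is the highest array in complex V at 0.243.

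The members with the smallest p at each dose were these, and limma called none after adjustment. At 706 mg/kg Ndufa8, an accessory subunit of complex I, ranged from 10.32 to 10.46 (median 10.38) against 10.40 to 10.69 (median 10.50) in vehicle, a difference of -0.13 (-0.28 to 0.01). Atp5if1, which blocks ATP hydrolysis by complex V, differed by 0.11 (-0.02 to 0.25) and Cox6c-ps1 by -0.12 (-0.28 to 0.04). Among the assembly factors, which help to build complex I and stay out of the finished enzyme, the 706 mg/kg differences ran from -0.10 for Ndufaf4 to 0.09 for Ndufaf3.

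At 70.6 mg/kg 3 members were under an unadjusted 0.05, 1 higher and 2 lower, against 5.24% of probe sets (2.42% higher and 2.82% lower). Of the 1180 genes with a mean of at least 10, 47 were under it. Atp5me, a small subunit of the ATP synthase membrane part, ranged from 11.40 to 11.88 (median 11.58) against 11.31 to 11.57 (median 11.44) in vehicle, a difference of 0.15 (0.03 to 0.28). Its highest value was in replicate 5, which lay 0.28 above the group mean. Cox7a1 ranged from 4.38 to 4.92 (median 4.54) against 4.65 to 4.86 (median 4.75), a difference of -0.18 (-0.34 to -0.01). Ndufaf4 ranged from 7.74 to 8.03 (median 7.96) against 7.81 to 8.39 (median 8.17), a difference of -0.22 (-0.44 to -0.003). All of them overlapped vehicle. With both arrays that stood apart left out, 1 of 87 members was under an unadjusted 0.05 at this dose, against 1420 of 31042 probe sets.

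At the lower doses 0 members were under an unadjusted 0.05, against 3.48% of probe sets at 7.06 mg/kg, 3.98% at 0.71 and 3.07% at 0.07. Of the 1180 genes with a mean of at least 10, 6 were under it at 7.06 mg/kg, 12 at 0.71 and 14 at 0.07. At 7.06 mg/kg the smallest p of a member belonged to Uqcrh, the hinge subunit of complex III, at 0.08 (-0.02 to 0.17). Next came Cox7a2l, which helps complexes III and IV to associate, at 0.13 (-0.04 to 0.29), and Cox4i1. At 0.71 mg/kg they were Atp5if1 at 0.13 (-0.002 to 0.27), Cox6a2 at 0.15 (-0.03 to 0.33) and Ndufaf3 at 0.11 (-0.03 to 0.26). At 0.07 mg/kg they were Atp5me at 0.13, Ndufs1 at 0.09 (-0.03 to 0.20) and Ndufb5, an accessory subunit of complex I, at 0.07 (-0.03 to 0.17).

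A graded change was also not called. For a slope over dose rank limma called 0 members (0.0% of probe sets). Without adjustment 0 members were under 0.05, against 4.16% of probe sets and 26 of the 1180 genes with a mean of at least 10. Among members the smallest p belonged to Ndufa12, Ndufs7 and Ndufa1, at 0.02, 0.02 and 0.01 log2 per step of dose. For any difference among the 6 groups limma called 0 members (0.0% of probe sets), and Cox7a1 alone was under 0.05 without adjustment, against 2.54% of probe sets. The next smallest p-values in that test belonged to Atp5me and Cyc1.

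The array measured other genes of the pathway, and limma called 0 of them at every dose. Of the 67 measured, 2 were under 0.05 without adjustment at 706 mg/kg, against 3.48% of probe sets. They were Cox20 and Ucp3, the latter at -0.13 (-0.26 to -0.001). At each of 70.6, 7.06 and 0.71 mg/kg 1 was under it, against 5.24%, 3.48% and 3.98% of probe sets. At 0.07 mg/kg 3 were, against 3.07%. At 706 mg/kg 9 of 13 measured regulators were above vehicle and 4 below (median 0.04), with Esrra, the gene of ERRα, at 0.10 (-0.06 to 0.25) and Gabpa, of the ETS factor GABP, at -0.11 (-0.24 to 0.03). Of 27 measured assembly factors outside the naming rule, 18 were above and 9 below (median 0.03), from -0.17 for Lyrm7 to 0.23 (0.01 to 0.45) for Cox20, which serves complex IV. Of 11 citric acid cycle genes 5 were above and 6 below (median -0.0005), with Cs, citrate synthase, at 0.004 (-0.16 to 0.17). Of 13 genes for other electron entry or for mitochondrial carriers and pores, 9 were above and 4 below (median 0.02), and Sqor, which feeds electrons from sulfide, had the widest interval at 0.43 (-0.10 to 0.96). Of 3 uncoupling proteins 1 was above and 2 below (median -0.13), and Ucp3 had a low mean of 5.62.

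Inside the groups, members moved together from array to array. Coordination was measured as Pearson's r between a pair of genes over the 36 arrays, after each group's mean was taken off, and it is a description over pairs that share the same arrays. The median r was 0.33 over all 3741 pairs of members, 0.0025 over all pairs of genes and 0.033 over pairs of genes with a mean of at least 10. Pairs inside a complex had a median of 0.41 (1151 pairs) and pairs across complexes 0.29 (2590 pairs). By complex the median was 0.55 in V (jackknife SE over arrays 0.13), 0.42 in I (0.075), 0.41 in III (0.10), 0.27 in II (0.12) and 0.12 in IV (0.11). Across complexes the median was 0.49 between III and V, 0.44 between I and V, 0.41 between I and III and 0.06 between II and IV, the pair of complexes nearest to 0.

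The median of complex IV included its dim tissue forms. Among its members with a mean of at least 6, Cox5a among them, it was 0.54, and with a mean of at least 8, which leaves out Cox5a (7.86) as well, it was 0.61. The highest pairs joined complexes: Cox7b with Atp5f1e reached 0.95 and with Atp5mk 0.94, and Uqcrq with Atp5mpl 0.91. These are all small subunits. In all, 39 members had a median r of at least 0.5 with the other members.

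A minority ran the other way. Of 12 members with a median r under 0, 5 had a mean of at least 10: Uqcrc2 (-0.43), Sdha (-0.40), Atp5f1a (-0.25), the alpha subunit of ATP synthase, Ndufs1 (-0.16) and Ndufa8 (-0.14). Other core subunits ran with the larger block, among them Ndufs3 (0.62), Ndufs8 (0.59), Uqcrc1 (0.45), Cyc1 (0.35) and Sdhb (0.30), and Atp5f1b had 0.11. Cox5a, an inner subunit of complex IV with a mean of 7.86, had -0.42, and Ndufaf1 had -0.11. The others were Cox6a2, Cox8b, Cox6c-ps1 and Cox4i2, all with means under 6, and Ndufaf4. Sdha, Uqcrc2, Atp5f1a, Ndufs1 and Cox5a, all among the 12, correlated positively with each other. Their r ran from 0.31 for Atp5f1a with Cox5a to 0.86 for Sdha with Uqcrc2. Sdha with Atp5f1a reached 0.79 and Uqcrc2 with Cox5a 0.73. These genes were picked for running against the same block, which by itself favours agreement among them. Against the larger block the lowest values were -0.85 for Sdha with Ndufb1, -0.84 for Sdha with Ndufb4 and -0.82 for Uqcrc2 with Ndufb1. Of 10 other, dimmer probe sets of members, that of Uqcrc2 followed its main one at 0.87 and that of Sdhd at 0.72. The other 8, all with a mean under 8, ran from -0.13 (Atp5if1) to 0.54 (also Atp5if1), with Atp5me at -0.05, Atp5po at -0.006, Ndufaf7 at 0.22 and Ndufv3 at 0.26. Among the promoter windows of 100 bases, those of Sdha, Uqcrc2 and Atp5f1a held motif letters and those of Ndufs1 and Cox5a did not. In the larger block those of Uqcrq, Atp5f1e and Ndufa13 did and that of Cox7b did not.

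**Figure D4:**
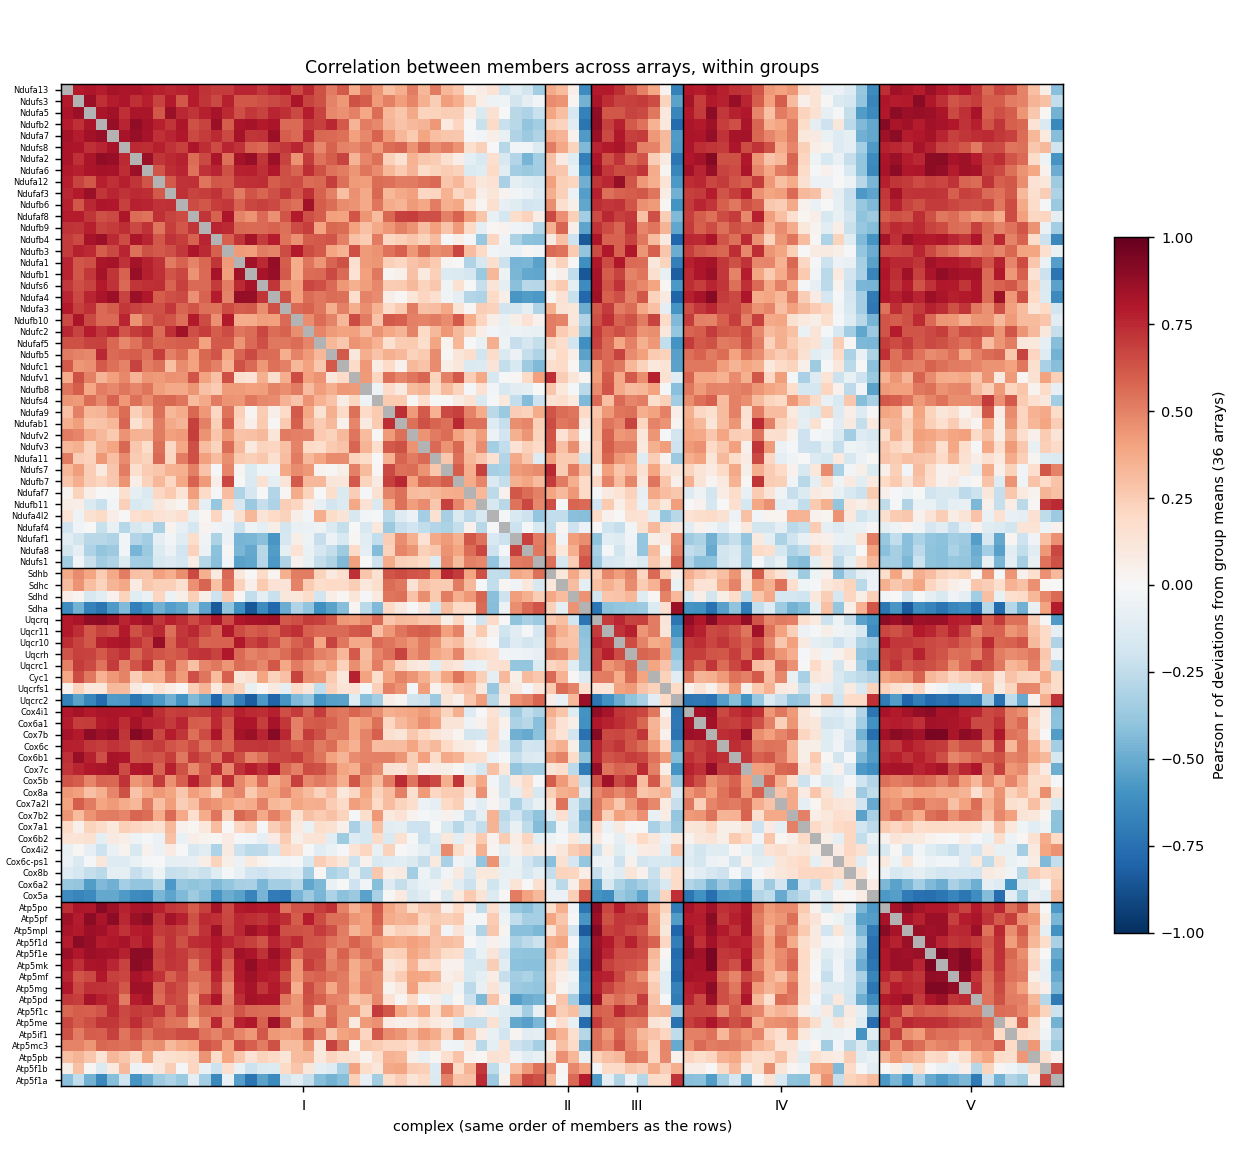
Pearson r of deviations from group means over 36 arrays (colour) for every pair of the 87 members, with rows and columns grouped by complex and ordered by median r. Red fills most of complexes I, III and V, and blue bands mark Sdha, Uqcrc2 and Cox5a, the last members of complexes II, III and IV; Sdha with Ndufb1 is the lowest pair at -0.85.

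Tests were run on 16 pairs, 10 among the core subunits and 6 within complex II, by permuting arrays within groups, two-sided, with Benjamini-Hochberg adjustment over the 16. Uqcrc1 rose and fell with Cox4i1 (r = 0.67, rho = 0.69, permutation p = 4e-05, adjusted 0.00064). Ndufs1 ran with Sdha (r = 0.63, rho = 0.56, permutation p = 0.00083, adjusted 0.00443) and with Atp5f1b (r = 0.54, rho = 0.57, permutation p = 0.00184, adjusted 0.00736). Sdha ran against Cox4i1 (r = -0.60, rho = -0.54, permutation p = 0.00048, adjusted 0.00384). Among the complex II pairs, Sdha with Sdhd passed (r = 0.45, rho = 0.54, permutation p = 0.0153, adjusted 0.0489) and the other 5 did not, with r from -0.10 for Sdha with Sdhc to 0.39 for Sdhb with Sdhd.

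Leaving out arrays moved some of these. Without the 2 arrays farthest from the median of the gene named first, r was 0.64 for Uqcrc1 with Cox4i1, 0.65 for Ndufs1 with Atp5f1b, -0.45 for Sdha with Cox4i1 and 0.61 for Sdha with Sdhd, all passing, and 0.42 for Ndufs1 with Sdha (permutation, adjusted p = 0.0619), whose rho of 0.50 still passed (permutation, adjusted p = 0.0159). Without the 2 arrays that stood apart, Ndufs1 with Sdha was 0.47 (permutation, adjusted p = 0.0320). Sdha with Cox4i1 was then -0.46 (permutation, adjusted p = 0.0320), but its rho of -0.40 did not pass (permutation, adjusted p = 0.0838). Sdha with Atp5f1b had r = 0.40 in all arrays (permutation, adjusted p = 0.0661) and rho = 0.43, which passed (permutation, adjusted p = 0.0357). Its r was 0.60 without them (permutation, adjusted p = 0.0048).

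The GAPDH 3′ to 5′ difference moved with the members. Its correlation with a member within groups had a median of 0.47, against 0.057 over all genes, and was above 0 for 66 of 87 members, or 75.9%, against 56.7% of all genes and 51.6% of genes with a mean of at least 10. Without the 2 arrays that stood apart the median was 0.39, against 0.0047 over all genes, and again 66 were above 0, against 50.7% of all genes. By complex the median was 0.76 in V, 0.48 in I, 0.47 in III, 0.42 in IV and -0.19 in II. Those 2 arrays left out, it was 0.58 in V, 0.39 in I, 0.38 in III, 0.13 in IV and -0.22 in II. Of the 12 members that ran opposite, 10 had a negative value in all arrays. Cox7b had 0.90, and 0.79 without those 2 arrays.

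Of 8 core and complex II genes tested against this difference, 4 passed, in opposite directions. Over genes with a mean of at least 10, r ran from -0.69 at percentile 5 to 0.73 at percentile 95. That range held Cox4i1, Uqcrc1 and Ndufs1 but not Sdha. Without the 2 arrays that stood apart it was -0.56 to 0.62. Sdha had r = -0.80 and rho = -0.80, and Cox4i1 r = 0.72 and rho = 0.75, both with a permutation p of 1e-05, the smallest that 100000 permutations can give (adjusted 4e-05). Uqcrc1 had r = 0.65 and rho = 0.57 (permutation p = 0.00019, adjusted 0.000507) and Ndufs1 r = -0.55 and rho = -0.48 (permutation p = 0.0036, adjusted 0.0072). Without the 2 arrays, r was -0.72 for Sdha, 0.72 for Cox4i1 and 0.49 for Uqcrc1, all passing, and -0.36 for Ndufs1 (permutation, adjusted p = 0.0730). Sdhd (-0.44, adjusted p = 0.0409 by permutation) and Atp5f1b (-0.43, adjusted p = 0.0312 by permutation) passed only without them. With the beta-actin controls in place of GAPDH the r over all 36 arrays was -0.79 for Sdha and 0.65 for Cox4i1.

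**Figure D5:**
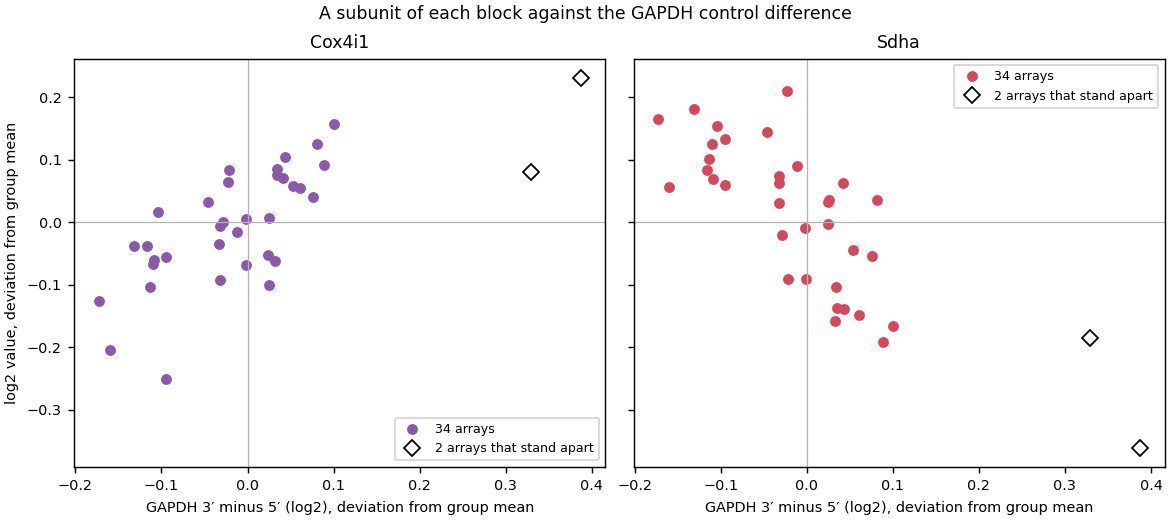
Deviation from the group mean (y axis, log2) of Cox4i1 and Sdha against the deviation of the GAPDH 3′ minus 5′ control difference (x axis, log2), 1 point per array, with open diamonds for the 2 arrays that stood apart. Cox4i1 rises with the difference (r = 0.72) and Sdha falls (r = -0.80), and the slope of each can be seen among the other 34 arrays.

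The arrays with the widest GAPDH difference, which also entered the correlations above, are described here by their members. In replicate 5 at 70.6 mg/kg 74 of 87 members were above their group mean and 13 below, from 0.45 for Ndufa2 to -0.47 for Cox5a, and Sdha was at -0.36. In replicate 4 at 0.07 mg/kg 58 were above and 29 below, and Cox5a was at -0.77. Set against each gene's mean over all arrays, the median in replicate 5 at 70.6 mg/kg was 0.160 for members and 0.049 for all genes. In replicate 4 at 0.07 mg/kg it was 0.045 for members and 0.015 for all genes. After the GAPDH difference was taken out of each member by a linear fit, the median r was 0.40 in complex I, 0.32 in II, 0.35 in III, 0.064 in IV and 0.32 in V, where it had been 0.55. The part of RNA length in the coordination that remained was not tested.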

How the data were processed

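The authors deposited log2 values, 1 per probe set and array, and RMA and the affy package are named without versions per the submitters' processing notes. RMA corrects background, sets all arrays to the same distribution of values and summarises the probes of a set, so a shift shared by most transcripts is removed. The genome build is not given in the sources used here. The table held 31099 probe sets, of which 57 are controls of the array and were not tested. Of the other 31042, 20826 had 1 gene symbol, 436 several and 9780 none, in the platform annotation, and all 87 members were matched by Entrez ID. Arrays give no read depth, and their number limits the precision. limma 3.58.1 (R 4.3.3) fitted 1 mean per group to all 36 arrays (30 residual degrees of freedom), with two-sided moderated tests and Benjamini-Hochberg adjustment over 31042 probe sets at 0.05, and was tested on simulated data. The series' own design used R/maanova, for which limma stood in here. Correlations, permutations (100000) and plots used Python 3.11.15, numpy 2.4.6, scipy 1.17.1 and matplotlib 3.10.9. Named members were the core, complex II and Cyc1 genes, the 3 smallest p-values of each comparison, and the extremes of level, spread and correlation. Members, lists and tests were chosen with earlier results of these data known. Alternatives left out arrays, rescaled them, changed the fit, the filter, the members or the probe sets.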

Additional observations from a re-analysis of the deposited data

Results flagged for a closer look

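Dixon's criterion was applied to 14 items (core genes and array medians of complexes) in each of the 6 groups, 84 tests in all. In 9 of them an array lay far from the other 5, where chance gives about 1 in 20 for a single test. The items share the same arrays and are not independent, so the count is no test against chance. For the array median of a complex (log2, deviation from each gene's mean), replicate 5 at 70.6 mg/kg was highest in complex III at 0.154 (others -0.037 to 0.019) and in complex V at 0.243 (others -0.046 to 0.055). It is the array with the widest GAPDH 3′ to 5′ difference, 0.41, whose part was not tested. Replicate 4 at 7.06 mg/kg was highest in complex I at 0.045 (others -0.0078 to 0.012) and in complex V at 0.076 (others -0.019 to 0.0051). Ndufs1 was high in replicate 5 at 706 mg/kg, with 10.44 against 10.29 to 10.32. In replicate 3 at 706 mg/kg Sdhc was low, with 10.97 against 11.08 to 11.12, and so was Cox4i1, with 12.28 against 12.47 to 12.58. Cyc1 was low in replicate 6 at 7.06 mg/kg, with 11.09 against 11.16 to 11.20. Atp5f1b was low in replicate 3 at 0.71 mg/kg, with 12.85 against 12.95 to 12.99.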

How the results depend on the processing

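Under 44 alternatives of the call counts, 36 of them leaving out an array, limma called 0 members and 0 probe sets in every comparison run. Recentring arrays on their medians gave a median r of 0.526 in complex I, 0.398 in II and 0.581 in III. All probe sets of each member gave 0.284 in III and 0.359 in V, members with a mean of at least 8 gave 0.608 in IV, those with at least 6 gave 0.537, and removal of the GAPDH difference gave 0.321 in V. Leaving out each array gave 0.384 to 0.448 in complex I, 0.191 to 0.316 in II, 0.385 to 0.464 in III, 0.0157 to 0.134 in IV and 0.453 to 0.602 in V, and 0.0036 in IV without both arrays that stood apart. Without the farthest 2 arrays, Ndufs1 with Sdha was 0.42, Ndufs1 with Uqcrc1 0.083 (-0.13 in all arrays), Sdha with Sdhc 0.097 and Sdha with Atp5f1b 0.52. Without the 2 arrays that stood apart, Ndufs1 with Uqcrc1 was 0.13, Sdha with Atp5f1b 0.60, and Sdhb with the GAPDH difference 0.0016 (-0.052 in all). The causes were not tested. Replicate numbers did not pair the arrays: same-numbered arrays of different groups had a median r of -0.030 (90 pairs) and others -0.011 (450 pairs), and 4 of 36 arrays matched their own number best. With the replicate block limma called 0 members, and the median r was 0.422, 0.278, 0.400, 0.0776 and 0.544 in complexes I to V. The GAPDH, beta-actin and Ndufa4 alternatives and the limit of 6 for complex IV were chosen after seeing the data. Ndufa4 and Ndufa4l2 in complex IV gave 0.428 in I and 0.122 in IV. The number of arrays, 6 a group, limits the precision to the stated intervals.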

Other observations

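Genes around the chain also ran with or against its members within groups, as a description over the 36 arrays. Among regulators, the median r with the members was 0.35 for Esrra, 0.35 for Sirt3, a mitochondrial deacetylase, and 0.31 for Tfam, which packages mitochondrial DNA. It was -0.45 for Ppargc1b, which had a low mean of 5.99, and -0.31 for Gabpa, whereas Gabpb1, of the same factor GABP, had 0.31. Among assembly factors outside the naming rule, Cox14 (0.58), Cox19 (0.56), Oxa1l (0.54) and Timmdc1 (0.53) were highest, and Cox15 (-0.13) and Cox11 (-0.13) lowest. Etfb, the beta subunit of the electron transfer flavoprotein, had 0.56, where its partner Etfa had 0.07. In the citric acid cycle Ogdh had 0.40 and Dld, a subunit of the same enzyme complex, had -0.44. Slc25a5, an ADP/ATP carrier, had -0.38. The hepatocyte marker Alb had -0.37 and Apoa1 had 0.21.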
